A study of Homo sapiens with 6 samples.

Results

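The genes described here encode the SR proteins, the hnRNPs and the TRA2 and CLK proteins that work with them, read from RNA-seq of LoVo cells after depletion of the long noncoding RNA *SNHG15*. They were taken by symbol from the protein-coding genes of the deposited matrix: SRSF followed by a number, *TRA2A*, *TRA2B*, *CLK1* to *CLK4*, and every symbol that begins with HNRNP. The rule found 42 of 63677 rows, made up of 12 SR protein genes, 6 TRA2 and CLK genes and 24 hnRNP genes. LoVo, an established cell line, comes from a human colorectal cancer. Cells were transfected with a pool of both siRNAs against *SNHG15* or with a negative control siRNA, called scramble, at 25 nM, and RNA was taken after 48 h, with 3 libraries per condition. Both conditions share the line and the transfection, and no untransfected library was compared. The methods of the study call the 3 libraries of a condition biological replicates, without saying how the cultures were kept apart, and p-values measure the spread between them.

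SR proteins bind exonic sequences through RNA recognition motifs and recruit the spliceosome through an arginine and serine rich domain, which the CLK kinases phosphorylate in the nucleus. hnRNPs coat nascent transcripts, often act against SR proteins at splice sites, and in several cases also control the stability and transport of mRNA. Many of these genes limit their own expression by splicing in an exon that ends the reading frame, so that the transcript is destroyed by nonsense-mediated decay.

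Such exons are shown because a count per gene adds the productive transcript and the one with the early stop, and the levels given here cannot separate them. Each run below is the start of an annotated alternative exon of a nonsense-mediated decay transcript in GENCODE release 44 on GRCh37, read 5′ to 3′ on the strand of the gene, with the in-frame stop codon that ends it in capitals. The 5 were picked after the levels were seen, from the SR genes with the lowest estimates for which one was annotated and from both TRA2 genes, with 1 printed per gene, although 3 are annotated for *SRSF7* and 2 for *SRSF3*.

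*SRSF7*, chr2:38976294-38976315, minus strand: ggcagaaaatttgagacggTGA

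*SRSF6*, chr20:42087793-42087944, plus strand: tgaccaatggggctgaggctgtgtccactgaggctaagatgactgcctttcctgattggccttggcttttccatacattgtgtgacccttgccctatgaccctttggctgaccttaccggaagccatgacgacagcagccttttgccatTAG

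*SRSF3*, chr6:36567598-36567631, plus strand: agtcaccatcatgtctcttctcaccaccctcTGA

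*TRA2A*, chr7:23561908-23562051, minus strand: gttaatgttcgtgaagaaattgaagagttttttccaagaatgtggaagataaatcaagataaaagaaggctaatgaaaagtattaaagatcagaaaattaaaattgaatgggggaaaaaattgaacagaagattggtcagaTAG

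*TRA2B*, chr3:185649560-185649640, minus strand: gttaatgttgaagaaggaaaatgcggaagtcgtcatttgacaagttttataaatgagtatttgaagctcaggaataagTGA

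The printed exons of *SRSF7*, *SRSF6* and *SRSF3* are 276, 268 and 456 bp long in full, and those of *TRA2A* and *TRA2B* are 301 and 276 bp. The *TRA2A* and *TRA2B* runs open with the same bases, gttaatgtt, and part after them.

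Library totals ran from 3446922 counts in scramble replicate 3 to 10256710 in scramble replicate 2. Levels are given in CPM, a gene's share of the counts of its library after TMM scaling, and fold changes are from the edgeR quasi-likelihood test, with adjustment by Benjamini-Hochberg over the 12507 genes tested. *SNHG15* itself was at 290, 277 and 261 CPM after scramble and at 77.2, 83.1 and 87.2 CPM after depletion, a log2 fold change of -1.74 (SE 0.12, adjusted p = 2.6e-05). *SNHG15* siRNA replicate 1 lay farthest from the rest on the first principal component, which held 47.3% of the variance, and it is also the lowest siRNA library for many of the genes below. Of 8 epithelial markers, *KRT8*, *KRT18*, *CDX2* and *CDH1* were read, with *KRT8* at 166 to 493 counts, while *EPCAM* and *CEACAM5* had at most 1 count in a library and *VIL1* and *KRT20* had 0. The cells are called LoVo here as the labels name them, and why these 4 markers were at or near 0 was not tested. Of the 11 markers of fibroblasts, leukocytes and endothelium with a row, 10 stayed at 3 counts or fewer in every library, and the exception, *COL1A1*, had 2 to 9. The summed epithelial markers were at 102 to 110 CPM in the scramble and 106 to 117 CPM in the siRNA libraries, and those of the other cells at 0.469 to 0.796 and 0.719 to 1.52 CPM; their part in the results was not tested. Because these are bulk libraries, fewer cells of a kind and less RNA per cell cannot be told apart.

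*HNRNPH3*, *HNRNPDL* and *HNRNPD* fell after *SNHG15* depletion, and no other gene of the 3 classes passed the test in either direction. Of the 42 genes, 37 had enough counts to be tested: 9 SR protein genes, 6 TRA2 and CLK genes and 22 hnRNP genes. The 3 called genes are 3 of 37 lower and 0 of 37 higher, where 2.23% of all genes tested were called lower and 3.13% higher, or 5.36% in either direction. At an unadjusted p under 0.05, 11 of 37 were lower, against 10.5% of all genes, and 2 of 37 were higher, against 12.0%. Fold change estimates lay below 0 for 29 of 37, against 49.9% of all genes tested, and the median was -0.21 on the log2 scale, against 0.0005 over all genes. All 3 siRNA libraries lay below all 3 scramble libraries for 14 of 37 genes (14.1% of all genes) and above them for 3 (14.7% of all genes).

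Among the 3854 tested genes with a mean of at least 50 CPM, a group set after the values were seen, 62.8% had an estimate below 0, 22.4% had non-overlapping lower siRNA libraries, 16.8% had a lower estimate with an unadjusted p under 0.05, and 4.1% were called lower against 1.84% higher. Of the 29 splicing genes at that level, 25 had an estimate below 0, 14 had non-overlapping lower siRNA libraries, 11 were lower at the unadjusted p, and 3 were called.

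**Figure D1:**
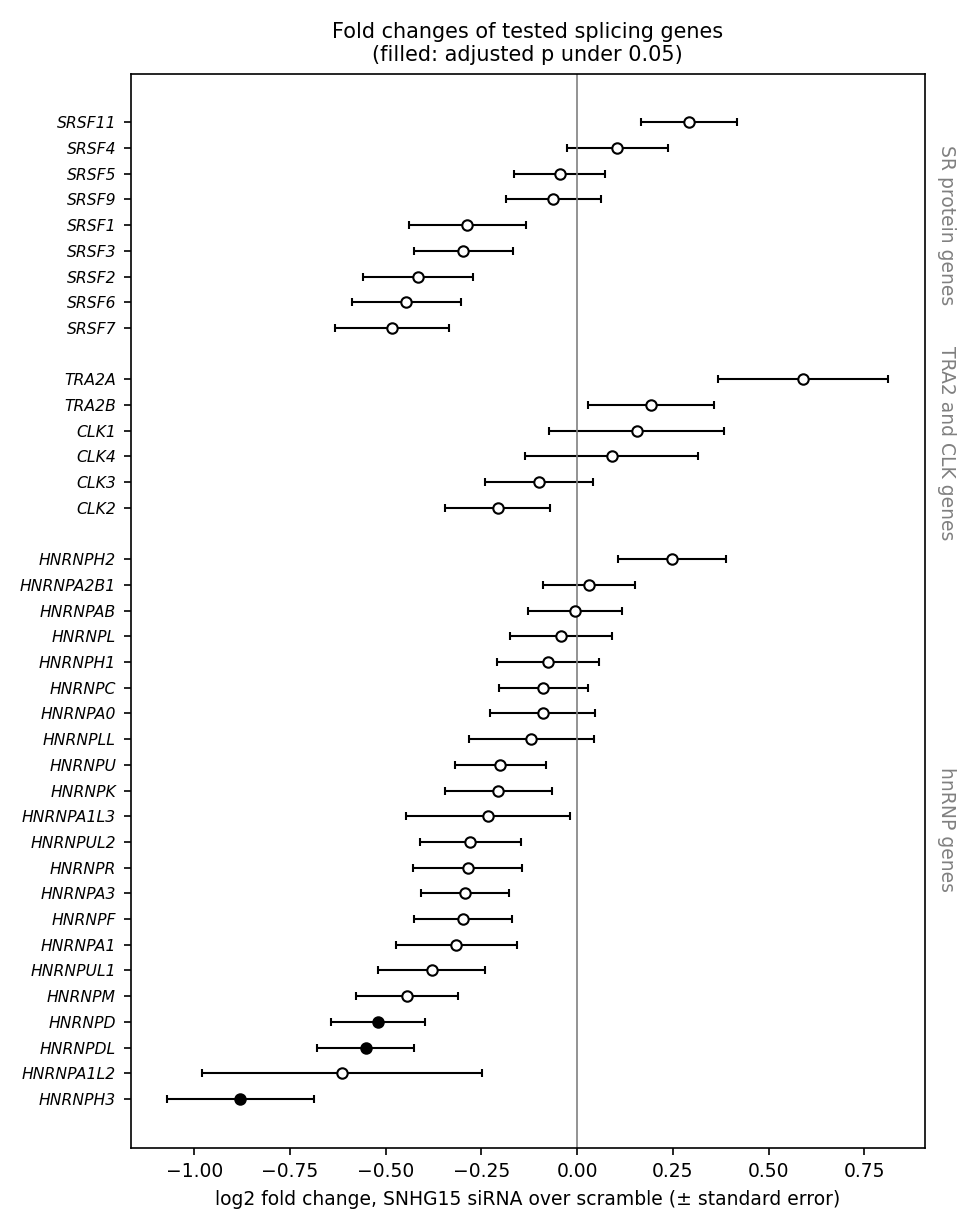
Log2 fold change of *SNHG15* siRNA over scramble for the 37 tested genes, by class and in order of size, with standard errors as bars and filled points for an adjusted p under 0.05. The 3 filled points, *HNRNPH3*, *HNRNPDL* and *HNRNPD*, are all hnRNP genes below 0.

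The 5 genes left untested had few or no counts in their rows. *SRSF8*, an intronless relative of *SRSF2*, had 0 counts in every library, which for each allows up to 3 counts. *HNRNPUL2-BSCL2*, a readthrough gene, also had 0 in every library. Because 100% of its exonic bases are shared with other genes on its strand, its 0 gives no bound on its level. *SRSF12* had 2 counts in scramble replicate 2 and 0 elsewhere. *HNRNPCL1*, a relative of *HNRNPC*, had 1, 3 and 3 counts in the scramble and 1, 1 and 0 in the siRNA libraries. *SRSF10* had 3, 1 and 0 counts in the scramble and 5, 3 and 9 in the siRNA libraries, so no fold is given. In the matrix, 8012 rows had no match in the annotation used here, and 243 of them were tested. Whether reads of *SRSF10* were counted in another row, or left out, was not tested. *HNRNPCL2* is annotated, but no row of it was read here.

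In levels per kilobase of annotated exon, *HNRNPF* was the highest hnRNP gene in the scramble libraries at 204 CPM per kb, and *SRSF7* the highest SR protein gene at 148, close to *SRSF2* at 142. *CLK2* led its class at 15.9 CPM per kb. *TRA2A* and *TRA2B* stood at 2.85 and 5.65, and *CLK1*, *CLK3* and *CLK4* at 1.22, 1.49 and 0.941. Exon lengths are those of all annotated transcripts together, which lowers these values for genes with many of them.

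*HNRNPH3* (chr10:70090931-70102950 on GRCh37, plus strand), whose product belongs to the hnRNP F and H family that binds runs of G, had the largest change of the 37. It was at 255, 358 and 271 CPM in scramble replicates 1 to 3 and at 111, 186 and 183 CPM in the siRNA libraries. The conditions did not overlap, with all siRNA libraries lower and siRNA replicate 1 the lowest. The mean fell from 295 ± 55 to 160 ± 42.4 CPM (SD, n = 3 each), 54.4% of the scramble level, with a log2 fold change of -0.88 (SE 0.19, edgeR adjusted p = 0.0201). The call was kept in 4 of 6 fits that each left out 1 library. It was lost without scramble replicate 2, the highest library (-0.71, adjusted p = 0.115), and without scramble replicate 3 (-0.94, adjusted p = 0.0544). Without siRNA replicate 1 the estimate was -0.68 with an adjusted p of 0.0126.

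The other members of that family did not pass the test. *HNRNPH1*, the most studied of them, was at 208, 222 and 209 CPM against 168, 210 and 228 CPM, so that the conditions overlapped, with a log2 fold change of -0.08 (SE 0.13). *HNRNPH2* was at 29.8, 33.8 and 36.0 CPM in the scramble and 37.3, 37.8 and 42.3 CPM in the siRNA libraries, all higher, with a log2 fold change of 0.25 (SE 0.14, adjusted p = 0.323); 15.8% of its exonic bases are shared with a readthrough gene on the same strand. *HNRNPF* was at 616, 695 and 688 CPM against 470, 607 and 548 CPM, all lower, with a log2 fold change of -0.30 (SE 0.13, adjusted p = 0.187).

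The balance within the family can be read inside each library. The log2 ratio of *HNRNPH3* to *HNRNPH1* was 0.29, 0.69 and 0.38 after scramble and -0.60, -0.18 and -0.31 after depletion, lower in every siRNA library than in any scramble library. These are ratios of CPM, without regard to length, and their differences between conditions do not depend on it. The mean difference was -0.81 (two-sided exact permutation test over libraries, p = 0.1, which is the lowest that 3 against 3 allows). The ratio to *HNRNPH2* changed by -1.14 and that to *HNRNPF* by -0.60, each with an exact permutation p of 0.1. Of 9 such ratios computed among the genes of these classes, chosen after the levels were seen, 7 reached that lowest value, and none could pass 0.05 in this design.

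*HNRNPD* and *HNRNPDL*, a closely related pair, both fell. *HNRNPD* encodes AUF1, which binds AU-rich elements and sets the lifetime of many mRNAs, and *HNRNPDL* encodes a paralog with similar RNA recognition motifs. *HNRNPD* (chr4:83273651-83295656, minus strand) was at 724, 728 and 694 CPM in the scramble and 438, 513 and 546 CPM in the siRNA libraries, and its 3 scramble values spread less than its 3 siRNA values. The mean fell from 715 ± 18.4 to 499 ± 55.5 CPM, with a log2 fold change of -0.52 (SE 0.12, adjusted p = 0.0276). *HNRNPDL* (chr4:83343718-83351615, minus strand) was at 656, 708 and 622 CPM against 394, 457 and 503 CPM. It fell from 662 ± 43.1 to 452 ± 54.4 CPM, with a log2 fold change of -0.55 (SE 0.13, adjusted p = 0.0253). Both genes were lower in every siRNA library than in any scramble library.

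The pair lies on the same strand, 48.1 kb apart. The log2 ratio of *HNRNPD* to *HNRNPDL* was 0.14, 0.04 and 0.16 in the scramble and 0.15, 0.17 and 0.12 in the siRNA libraries, a difference of 0.03 between the means (exact permutation test, two-sided, p = 0.6). *HNRNPAB*, a further relative, was at 245, 209 and 213 CPM against 226, 234 and 206 CPM, with a log2 fold change of -0.01 (SE 0.12) and overlapping libraries. The log2 ratio of *HNRNPD* to *HNRNPAB* went from 1.69 ± 0.12 to 1.16 ± 0.23 (exact permutation p = 0.1). Each call of the pair was kept in 2 of 6 fits without 1 library, those without siRNA replicate 1 or 3. For *HNRNPD* the adjusted p was 0.109, 0.112 and 0.076 without scramble replicates 1 to 3 and 0.0807 without siRNA replicate 2, and for *HNRNPDL* 0.0952, 0.122, 0.0619 and 0.0803. Its estimate stayed between -0.59 and -0.44 for *HNRNPD* and between -0.63 and -0.47 for *HNRNPDL* over these 6 fits.

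**Figure D2:**
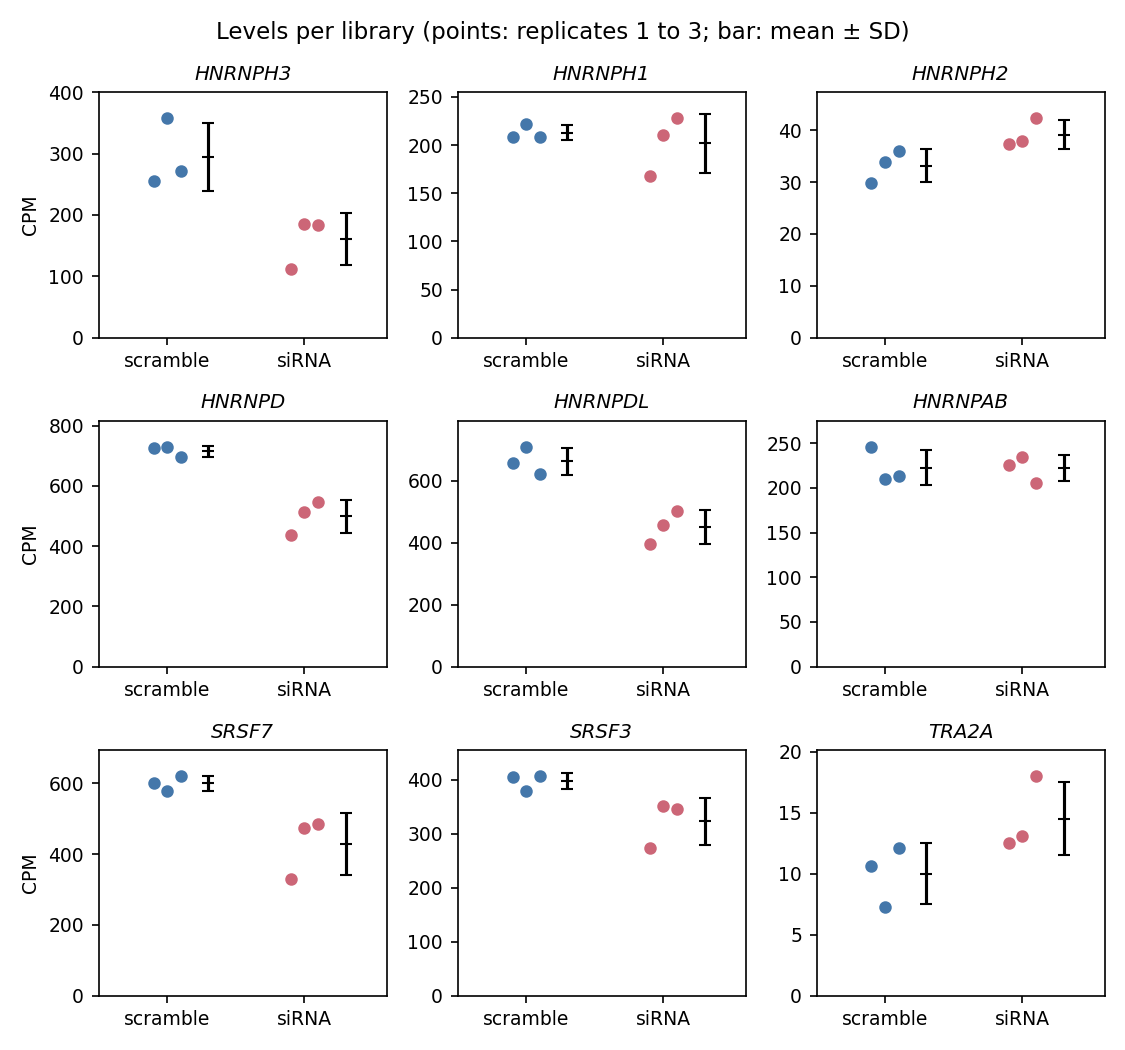
CPM in each library for 9 genes, with the 3 replicates of a condition as points and the mean ± SD beside them, each panel starting at 0 on its own scale. *HNRNPH3*, *HNRNPD*, *HNRNPDL*, *SRSF7* and *SRSF3* have all siRNA points below all scramble points, while *HNRNPH1* and *HNRNPAB* overlap and *HNRNPH2* and *TRA2A* have all siRNA points above.

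The stretches before the start sites of the 3 called genes are shown because these genes fell together, with the letters CACGTG, the E-box core that MYC and related factors bind, in capitals. They are 150 bases upstream of a RefSeq start on GRCh38.p14, and were chosen among the entries of each gene after the levels were seen, as those holding these letters.

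*HNRNPH3*, chr10:68331543-68331692, plus strand: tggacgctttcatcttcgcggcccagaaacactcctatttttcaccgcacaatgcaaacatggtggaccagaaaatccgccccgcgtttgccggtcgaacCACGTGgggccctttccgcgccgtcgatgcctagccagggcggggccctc

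*HNRNPD*, chr4:82373992-82374141, minus strand: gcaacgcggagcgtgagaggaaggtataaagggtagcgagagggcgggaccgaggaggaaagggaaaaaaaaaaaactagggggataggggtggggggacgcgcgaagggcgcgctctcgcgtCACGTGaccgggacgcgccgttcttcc

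*HNRNPDL*, chr4:82430463-82430612, minus strand: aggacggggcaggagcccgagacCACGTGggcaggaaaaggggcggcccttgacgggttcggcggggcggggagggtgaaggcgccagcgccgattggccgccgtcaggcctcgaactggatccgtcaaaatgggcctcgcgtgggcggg

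*HNRNPH3* has 3 start entries, 1 of which holds CACGTG within 250 bases before and 50 after the start, *HNRNPDL* has 2, both of which hold it, and *HNRNPD* has 1. Of the 42 genes, 38 had an entry, and 9 of these held CACGTG in at least 1 window, 23.7% against 8.77% of the 27305 genes with a window. All 9 are tested genes, and beside the 3 called they are *CLK2*, *CLK4*, *HNRNPA3*, *HNRNPH2*, *HNRNPM* and *HNRNPUL1*, of which *HNRNPH2* and *CLK4* had estimates above 0. Of the 33 tested genes of the 3 classes with a window, 9 held CACGTG, or 27.3%, against 13.0% of all tested genes with a window. Only 9114 of 12507 tested genes were matched to a window by symbol, so that shares over tested genes are incomplete. CACGTG reads the same on both strands, and it was 1 of 4 motifs searched on both strands, all picked after the levels were seen. TGACGTCA (the CRE) was in 0 of 38 genes (2.25% of all), CCAAT in 22 of 38, or 57.9% (39.7% of all), and GGGCGG (the GC box) in 28 of 38, or 73.7% (48.3% of all). Over all tested genes with a window these shares were 3.91% for TGACGTCA, 43.5% for CCAAT and 79.0% for GGGCGG. Over the 33 tested genes of the 3 classes they were 0%, 57.6% and 78.8%, so that the GC box was no more frequent here than in tested genes. CCAAT was in 17 of the 20 tested hnRNP genes with a window and in 1 of the 8 tested SR protein genes, and CACGTG in 7 of 20 and 0 of 8. Genes with several starts have more chances to hold a motif, and a match is only a description of the letters.

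*HNRNPM* was the hnRNP gene nearest the threshold. Its product binds pre-mRNA and regulates alternative exons in epithelial cancer cells. It was at 585, 683 and 600 CPM in the scramble and 391, 517 and 464 CPM in the siRNA libraries, all lower, with a log2 fold change of -0.44 (SE 0.13, edgeR adjusted p = 0.0695). DESeq2 gave it an adjusted p of 0.0271. *HNRNPUL1*, a relative of *HNRNPU*, was at 239, 255 and 217 CPM against 217, 160 and 170 CPM, with siRNA replicate 1 at the level of the lowest scramble library. Its log2 fold change was -0.38 (SE 0.14, adjusted p = 0.127), and without siRNA replicate 1 its adjusted p was 0.0152. *HNRNPA3*, one of the A and B core proteins, went from 124 ± 2.31 to 101 ± 6.17 CPM, -0.29 on the log2 scale (SE 0.12, adjusted p = 0.154), but 53.6% of its exonic bases overlap genes on the opposite strand, and the strand setting of the counting is not given in the sources used here.

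None of the core particle genes passed the test. *HNRNPA1*, which represses exons and competes with *SRSF1*, was at 218, 260 and 215 CPM against 142, 218 and 197 CPM. Those libraries overlapped, and the log2 fold change was -0.32 (SE 0.16, adjusted p = 0.257). *HNRNPA2B1*, its partner in the core particle, was at 941, 915 and 771 CPM against 870, 910 and 906 CPM, a log2 fold change of 0.03 (SE 0.12). The log2 ratio of *HNRNPA1* to *HNRNPA2B1* was -1.92 ± 0.16 in the scramble and -2.29 ± 0.29 in the siRNA libraries (exact permutation p = 0.2). *HNRNPC*, which binds runs of U, was at 176, 177 and 197 CPM against 171, 171 and 175 CPM, a log2 fold change of -0.09 (SE 0.12) even though the libraries did not overlap.

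*HNRNPK*, a poly-C binding protein, was at 356, 300 and 356 CPM against 243, 309 and 325 CPM (log2 fold change -0.21, SE 0.14). *HNRNPL*, which binds CA repeats, was at 161, 150 and 122 CPM against 144, 128 and 149 CPM (-0.04, SE 0.13). *HNRNPU*, a large nuclear scaffold protein, was at 287, 307 and 298 CPM against 234, 277 and 265 CPM (-0.20, SE 0.12). Of these 3, only *HNRNPU* had non-overlapping libraries, and 19% of its exonic bases overlap genes on the opposite strand. *HNRNPR*, *HNRNPUL2*, *HNRNPLL* and *HNRNPA0* had estimates of -0.29, -0.28, -0.12 and -0.09, and 44.3% of the exonic bases of *HNRNPUL2* are shared with the readthrough gene on its strand. *HNRNPA1L2* and *HNRNPA1L3*, near copies of *HNRNPA1*, had estimates of -0.61 (SE 0.37) and -0.23 (SE 0.21) at 3.40 and 9.41 CPM in the scramble libraries. For *HNRNPA1L2*, 100% of the exonic bases are shared with another annotated gene on its strand. Reads could be split between these copies, *HNRNPA1* and its 74 pseudogene rows, 26 of which had counts. Those rows held 152 counts, 1.62% of the 9403 of *HNRNPA1*. Adding them to *HNRNPA1* gave it a log2 fold change of -0.31 against -0.32. Reads that match several copies could not be followed here. The values of all 3 genes, and the ratio of *HNRNPA1* to *HNRNPA2B1*, are therefore uncertain.

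Over the 22 tested hnRNP genes, 20 had estimates below 0 (49.9% of all genes), 7 were lower at an unadjusted p under 0.05 (10.5% of all genes) and 0 higher, and 9 had all siRNA libraries below all scramble libraries (14.1% of all genes), with a median log2 fold change of -0.26. Of the 18 with at least 50 CPM these counts were 17, 7 and 9, against 62.8%, 16.8% and 22.4% of all genes at that level. The summed level of the class was 6430, 6823 and 6269 CPM in the scramble and 4834, 5629 and 5602 CPM in the siRNA libraries, a mean difference of -17.7% (exact permutation test, two-sided, p = 0.1). Without the 3 called genes, a sum made after the values were seen, it went from 4835 ± 177 to 4245 ± 311 CPM, a difference of -12.2%, again with non-overlapping libraries and an exact permutation p of 0.1. The non-overlap of this smaller sum depends on the TMM factors, and neither sum was taken with other scaling. siRNA replicate 1 was the lowest library in both sums. Left without that library, the median of the 22 genes was -0.15 and 4 were called, *HNRNPH3*, *HNRNPD*, *HNRNPDL* and *HNRNPUL1*, while 0 were called without scramble replicate 2 or 3, 1 without scramble replicate 1 or siRNA replicate 2, and 3 without siRNA replicate 3.

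**Figure D3:**
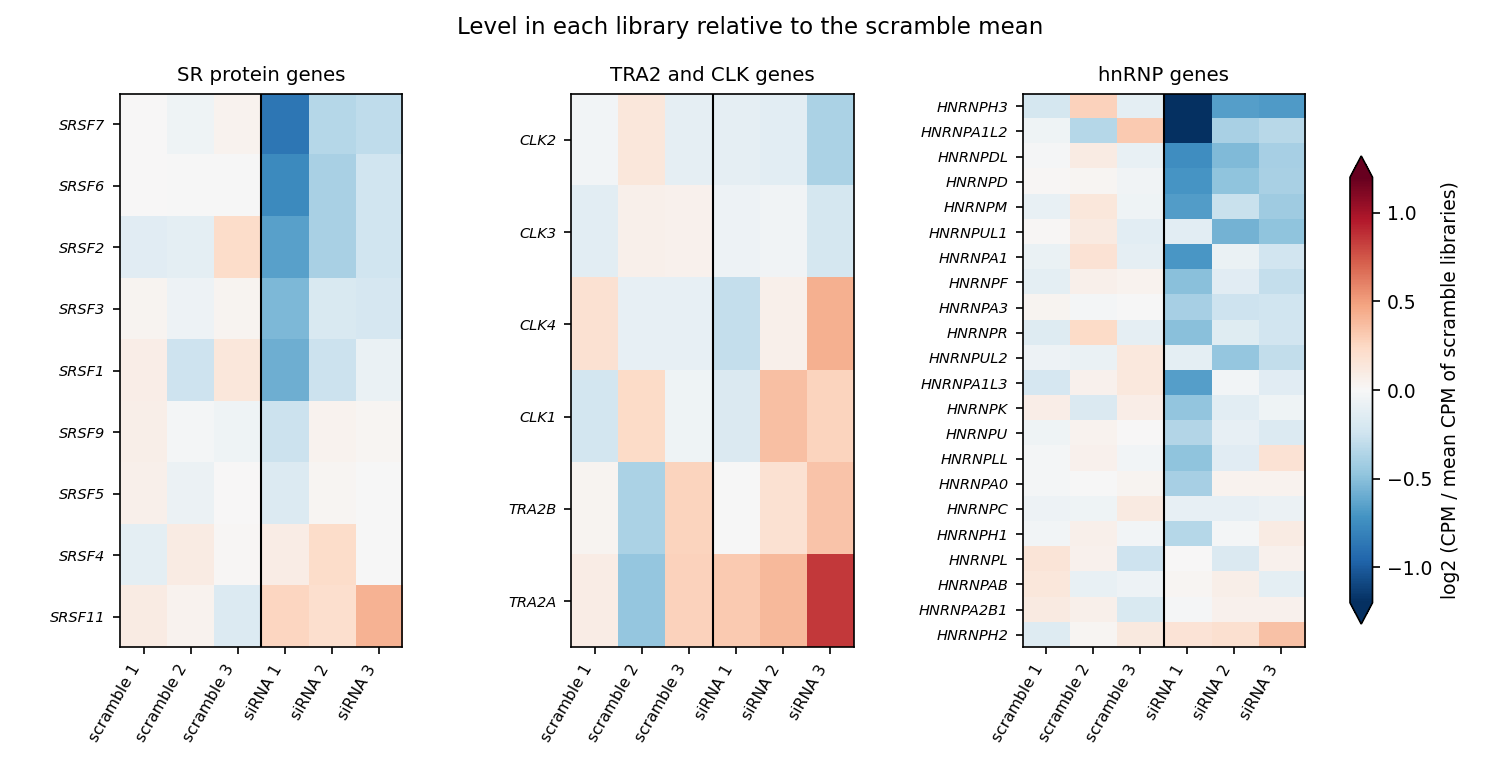
Log2 ratio of the CPM in each library to the mean of the scramble libraries, for the 37 tested genes by class, with blue for lower and red for higher and values beyond the colour bar in its end colour. In the hnRNP and SR panels siRNA replicate 1 is the darkest blue column for most genes.

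None of the 9 tested SR protein genes passed the test in edgeR, where the smallest adjusted p was 0.0746, and DESeq2 called 1, *SRSF7*. At an unadjusted p under 0.05, 4 of 9 were lower and 1 higher, against 10.5% and 12.0% of all genes and 16.8% lower among those with at least 50 CPM, where all 9 lie. *SRSF7*, which carries a zinc knuckle beside its RNA recognition motif and also acts in 3′ end choice, had the lowest estimate. It was at 602, 580 and 620 CPM in the scramble and 329, 473 and 485 CPM in the siRNA libraries. All siRNA libraries were lower, replicate 1 most of all, with a log2 fold change of -0.48 (SE 0.15, edgeR adjusted p = 0.0746). DESeq2 gave an adjusted p of 0.0283. One of its 3 annotated stop-ending exons is the first of those printed above.

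*SRSF6* was at 106, 105 and 105 CPM in the scramble and 62.1, 80.4 and 89.5 CPM in the siRNA libraries, so that the scramble values hardly differed and the siRNA values spread. The log2 fold change was -0.45 (SE 0.14, adjusted p = 0.0842), and without siRNA replicate 3 it was -0.56 with an adjusted p of 0.0478. *SRSF2*, long known as SC35, a marker protein of nuclear speckles, was at 384, 389 and 492 CPM against 268, 322 and 357 CPM, with a log2 fold change of -0.42 (SE 0.14, adjusted p = 0.111). Both genes had non-overlapping libraries, and 27.7% of the exonic bases of *SRSF2* overlap genes on the opposite strand. Of those of *SRSF6*, 13.4% are shared with a gene on the same strand.

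*SRSF3*, the smallest SR protein and the closest relative of *SRSF7*, was at 406, 380 and 406 CPM against 273, 351 and 345 CPM. It was lower in every siRNA library, with a log2 fold change of -0.30 (SE 0.13, adjusted p = 0.194). The log2 ratio of *SRSF7* to *SRSF3* went from 0.60 ± 0.02 to 0.40 ± 0.11 (exact permutation p = 0.1). *SRSF1*, the founding member and a known proto-oncogene, was at 173, 139 and 181 CPM against 110, 138 and 156 CPM, with overlapping libraries and a log2 fold change of -0.29 (SE 0.15, adjusted p = 0.284). Of its exonic bases 32.7% are shared with other annotated genes on the same strand.

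*SRSF11* was the SR protein gene with the highest estimate. It was at 122, 118 and 102 CPM in the scramble and 136, 131 and 152 CPM in the siRNA libraries, all higher, with a log2 fold change of 0.29 (SE 0.12, adjusted p = 0.187). *SRSF4* was at 49.6, 57.3 and 54.1 CPM against 57.3, 62.6 and 53.3 CPM (0.10, SE 0.13). *SRSF5* was at 236, 215 and 226 CPM against 201, 230 and 225 CPM (-0.05, SE 0.12), and *SRSF9* had an estimate of -0.06 (SE 0.12), with 43.6% of its exonic bases shared with genes on the opposite strand. The libraries of *SRSF4*, *SRSF5* and *SRSF9* overlapped.

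The median log2 fold change of the 9 genes was -0.29, and -0.16 without siRNA replicate 1. Summed over the class, they were at 2289, 2179 and 2379 CPM in the scramble and 1604, 1993 and 2066 CPM in the siRNA libraries, a mean difference of -17.3%. The libraries did not overlap (two-sided exact permutation p = 0.1, the lowest that can be had). That non-overlap also depends on the TMM factors, and other scaling was not applied to the sum.

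**Figure D4:**
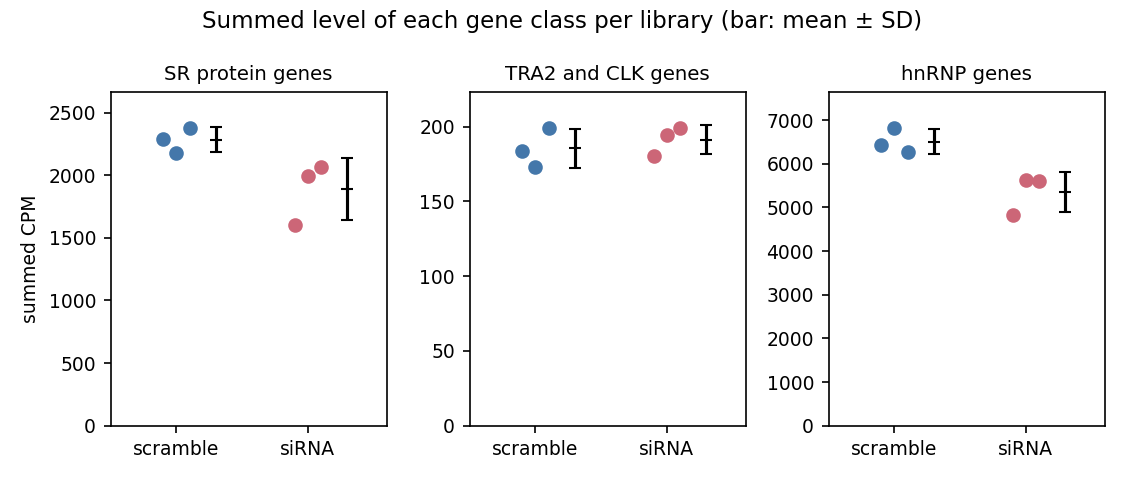
Summed CPM of the SR protein, TRA2 and CLK, and hnRNP genes in each library, with the mean ± SD beside the points and axes starting at 0. All siRNA points lie below the scramble points in the SR and hnRNP panels, with siRNA replicate 1 lowest, and the points of the TRA2 and CLK panel overlap.

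Of the TRA2 and CLK genes, 4 of 6 had estimates above 0, with a median of 0.12 on the log2 scale, which was 0.03 without scramble replicate 2 or siRNA replicate 3 and 0.26 without siRNA replicate 1. *TRA2A* and *TRA2B* encode activators that bind GAA-rich exonic enhancers. In edgeR or in DESeq2, 0 of the 6 genes passed the test. At an unadjusted p under 0.05 in edgeR 1 of 6 was higher, against 12.0% of all genes higher and 22.5% in either direction. That gene was *TRA2A*, at 10.7, 7.26 and 12.1 CPM in the scramble and 12.5, 13.1 and 18 CPM in the siRNA libraries. The siRNA libraries were all higher, by little for replicate 1, with a log2 fold change of 0.59 (SE 0.22, adjusted p = 0.138). *TRA2B* was at 75.7, 57.0 and 89.2 CPM against 73.8, 83.7 and 93.5 CPM, which overlapped (0.19, SE 0.16). The log2 ratio of *TRA2A* to *TRA2B* went from -2.89 ± 0.07 to -2.54 ± 0.15, and that of *SRSF7* to *TRA2A* from 5.94 ± 0.34 to 4.88 ± 0.25, each with an exact permutation p of 0.1.

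Among the kinases, *CLK2* was at 56.8, 64.0 and 54.1 CPM in the scramble and 54.1, 53.4 and 44.8 CPM in the siRNA libraries, a log2 fold change of -0.21 (SE 0.14, adjusted p = 0.395). *CLK1* was at 5.39, 7.36 and 6.05 CPM against 5.55, 8.06 and 7.52 CPM (0.16, SE 0.23). *CLK4*, the closest relative of *CLK1*, was at 8.44, 6.96 and 6.96 CPM against 6.10, 7.77 and 9.98 CPM (0.09, SE 0.23). *CLK3* had an estimate of -0.10 (SE 0.14). The libraries of *CLK1*, *CLK3* and *CLK4* overlapped, and at the level of *CLK1* and *CLK4* the standard errors are wide. Summed, the 6 genes were at 185 ± 12.9 CPM in the scramble and 191 ± 9.88 CPM in the siRNA libraries (exact permutation p = 0.6).

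Genes that act with these proteins were read from 5 lists, of which 90 genes are listed and 86 tested, and 4 passed the test, or 4.65%, near the 5.36% of all genes called. Among the 8 kinases, phosphatases and import receptors of SR proteins, 2 rose and 0 fell, where 3.13% of all genes were called higher and 2.23% lower. *SRPK2*, which phosphorylates SR proteins in the cytoplasm, was at 33.0, 34.2 and 20.9 CPM against 64.5, 56.8 and 47.7 CPM, with a log2 fold change of 0.90 (SE 0.18, adjusted p = 0.0152). *PRPF4B*, a kinase of the spliceosome, was at 30.1, 26.3 and 27.2 CPM against 58.5, 37 and 39.2 CPM (0.69, SE 0.18, adjusted p = 0.0462). Both were higher in every siRNA library. *SRRM1*, a coactivator with arginine and serine repeats and 1 of 21 SR-related genes, rose from 28.1 ± 4.03 to 43.7 ± 6.61 CPM (0.64, SE 0.16, adjusted p = 0.0397).

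The remaining called gene fell. *U2AF1*, which reads the AG at the end of introns and is 1 of 23 genes of the U1, U2 and Sm proteins, went from 487 ± 55.8 to 328 ± 5.77 CPM (-0.57, SE 0.12, adjusted p = 0.02). Of the 16 tri-snRNP and PRPF19 complex genes and the 18 tested other splicing regulators, 0 passed in edgeR. At an unadjusted p under 0.05 in edgeR, 10.5% of all genes were lower and 12.0% higher. In the tri-snRNP and PRPF19 list 1 of 16 was lower and 1 higher. Of the other regulators 4 of 18 were lower and 0 higher, and of the U1, U2 and Sm genes 6 of 23 and 0. Of the SR kinase and import list 0 of 8 were lower and 3 higher, and of the SR-related list 1 of 21 and 2.

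The SR kinase and import list had a median of 0.18, with 3 of 8 estimates below 0. The SR-related list had 0.01, with 10 of 21 below 0. Medians of the U1, U2 and Sm, tri-snRNP and PRPF19, and other regulator lists were -0.13, -0.12 and -0.19. Their estimates lay below 0 for 17 of 23, 10 of 16 and 12 of 18 tested genes, against 49.9% of all genes. All siRNA libraries lay below all scramble libraries for 9, 3 and 4 of these genes (14.1% of all genes). They lay above for 0, 1 and 0 (14.7% of all genes). Leaving out any 1 scramble library ended the call of all 4 genes, with adjusted p-values from 0.0505 (*SRPK2* and *U2AF1* without replicate 1) to 0.183 (*SRRM1* without replicate 2). Without siRNA replicate 1 the calls of *PRPF4B* (0.45, adjusted p = 0.0614) and *SRRM1* (0.51, adjusted p = 0.0539) were lost. Without siRNA replicate 2 those of *SRRM1* and *U2AF1* were lost, each at an adjusted p of 0.0657.

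**Figure D5:**
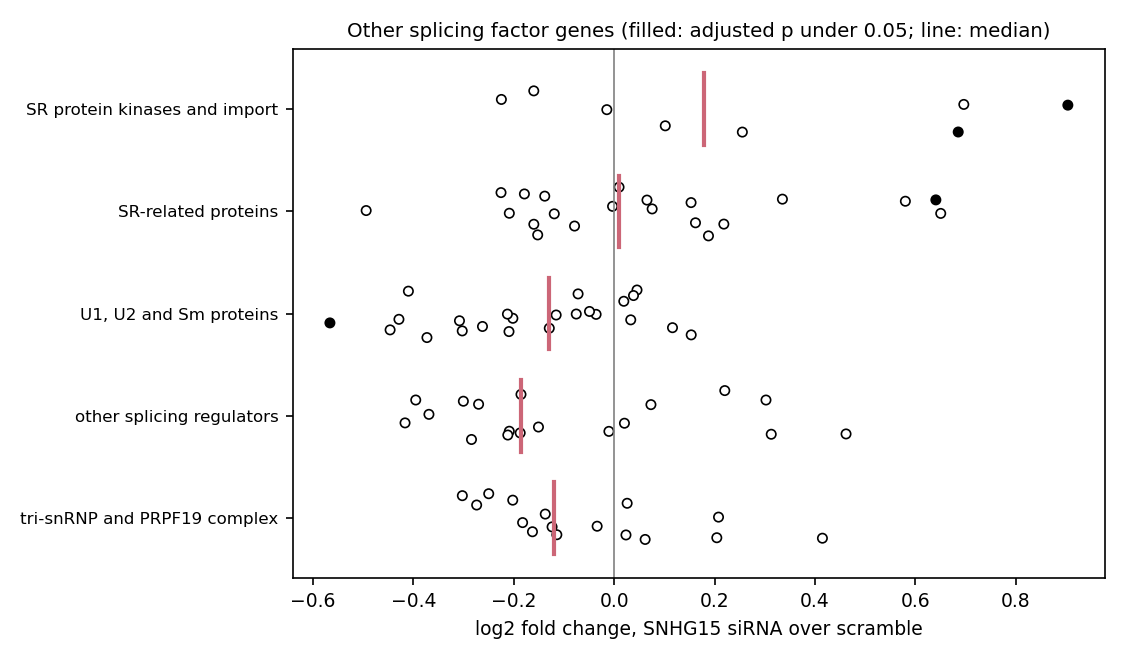
Log2 fold change of each tested gene of 5 lists of other splicing factors, with the median of a list as a line and filled points for an adjusted p under 0.05. The 4 filled points are *SRPK2*, *PRPF4B* and *SRRM1* above 0 and *U2AF1* below 0.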

How the data were processed

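Libraries were made with a stranded mRNA kit and sequenced as 75 bp paired-end reads. The authors deposited raw read counts per Ensembl gene on hg19, not normalized; the submitters' processing notes name STAR and featureCounts, while the methods of the study name bowtie2. The annotation and the strand setting are not given in the sources used here. Genes were filtered with filterByExpr (minimum count 10, total 15), scaled by TMM and tested with the edgeR 4.0.16 quasi-likelihood test in R 4.3.3, comparing 3 *SNHG15* siRNA with 3 scramble libraries. Calls needed a Benjamini-Hochberg adjusted p under 0.05. The SE of a log2 fold change was derived as its absolute value divided by the square root of the edgeR F statistic. The code was tested on simulated data. DESeq2 1.42.0, other scaling factors and filters, a replicate block, added pseudogene counts and leaving out each library were alternatives. Same-numbered libraries deviated with correlations of -0.08, 0.18 and -0.06, so numbers were not taken to pair them. Symbols, positions and exons came from GENCODE release 44 on GRCh37, and start sites from RefSeq on GRCh38.p14. Members and lists were chosen with earlier results of these data known. Named genes are every member, every member past the threshold, the 3 largest rises and falls and the highest level per length in each class, a set of well-known members, up to 3 called genes per related list, and *SNHG15*. The paralog ratios and the motifs were picked after the values were seen. 2 further lists of splicing genes that were planned are not reported here.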

Additional observations from a re-analysis of the deposited data

How the results depend on the processing

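No paired analysis is implied by the labels, since numbers alone are shared, and libraries did not each correlate best with their own number. With the replicate block, 543 of all genes were called instead of 671, the call of *HNRNPD* was lost (adjusted p = 0.0547), and the SR-related list had 2 calls. *HNRNPH3* and *HNRNPDL* were called in 8 of 8 alternatives on all libraries, and *HNRNPD* in 7. DESeq2 called 1 SR protein gene, 4 hnRNP genes with *HNRNPM* added, and 2 and 3 of the SR-related and the U1, U2 and Sm lists. Without a filter on counts, 1312 genes were called, with 3 SR protein genes (*SRSF7*, *SRSF2* and *SRSF6*) and 4 hnRNP genes, *HNRNPM* again added. The lists then had 3 SR kinase and import, 3 SR-related, 3 U1, U2 and Sm and 2 other regulator calls. With upper-quartile factors the SR-related list had 2 calls. Fits without 1 library called 139 to 812 genes, 0 to 1 SR protein genes, 0 to 4 hnRNP genes, 0 to 2 of the SR kinase and SR-related lists, and 0 to 3 of U1, U2 and Sm. Over these fits the log2 fold change crossed 0 for 9 of the 37 tested genes: *SRSF9*, *HNRNPA0*, *HNRNPAB* and *HNRNPLL*, with highest values of 0.026, 0.039, 0.068 and 0.028 against estimates below 0, and 5 others, which ran from -0.11 (without siRNA replicate 3) to 0.25 for *CLK4*, from -0.056 (without scramble replicate 3) to 0.084 for *HNRNPA2B1*, from -0.17 to 0.037 (without siRNA replicate 1) for *HNRNPH1*, from -0.15 to 0.041 (without scramble replicate 1) for *HNRNPL*, which was also at 0.024 without siRNA replicate 2, and from -0.079 to 0.0082 (without siRNA replicate 1) for *SRSF5*. The cause of these changes was not tested. Class medians kept their sign in every fit. With 3 libraries a condition, and 3446922 counts in the shallowest, changes as small as those of most of these genes were not separable from the spread.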
